A study of Mus musculus with 12 samples.

Results

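Of 55421 genes with a name in the expression table, 536 separated mouse cultures that began as astrocytes from mouse brain progenitor preparations without regard to 5 days of sphere culture. The genes were chosen by the FPKM values themselves, which are fragments counted per length of transcript and per scaled depth of library. The lowest value of a gene in the 6 libraries of one pool had to be at least 2 times its highest value in the 6 libraries of the other. Every library of the higher pool also had to hold at least 5 FPKM. By this rule 241 genes were higher in the astrocyte-derived pool (4.13% of the 5833 genes at 5 FPKM or more in all 6 of its libraries) and 295 were higher in the progenitor pool (5.15% of 5728). The difference between the pools was therefore set by the choice of genes, and it is described here without a test. What the choice did not use is how these genes differed inside each pool.

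RNA was sequenced from brain cells of C57BL/6 mice in 4 groups of 3 libraries. AST libraries came from astrocytes at 0 days of incubation, the negative control, and A-iSC libraries came from such astrocytes after 5 days as 3D cell spheres. P56-NSC and P0-NSC libraries came from brain-derived neural progenitor cells and served as positive controls. No transgene, sorted reporter or drug is named for any group. P56 and P0 are the usual notation for postnatal days, which would make these preparations adult and newborn, though the labels do not spell this out and give no age for the astrocytes. They do not say how the progenitors were isolated or whether they were grown in culture. Nothing in them ties the 3 libraries of a group to different mice or cultures, and the p-values below may therefore reflect technical spread alone.

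Astrocytes are glia that support neurons, clear transmitters and, when put in flat culture with serum or after injury, take on features of adherent, matrix-producing cells. Neural stem and progenitor cells share many genes with astrocytes, among them the intermediate filament genes Nes and Vim and the transcription factor gene Sox2, and can grow as floating spheres. Interferon-stimulated genes encode antiviral and antigen-presenting proteins and are switched on together through factors such as STAT2 and IRF9, while synaptic genes encode the machinery of transmitter release and reception in neurons.

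The labelled cell types were checked against summed marker levels. Recovered reads numbered 17077780 to 24452419 per library, and mitochondrial genes held 16.5 to 17.6% of reads in P56-NSC and 2.94 to 7.03% elsewhere. Genes of myelin and oligodendrocytes summed to 15744 to 18117 FPKM in P56-NSC, against 833 to 1198 in AST, 438 to 604 in A-iSC and 162 to 169 in P0-NSC. Microglia and macrophage markers summed to 6944 to 10009 FPKM in A-iSC, against 742 to 871 in AST, 1349 to 1489 in P56-NSC and 251 to 316 in P0-NSC. Astrocyte markers summed to 16526 to 18150 FPKM in A-iSC and 18354 to 19717 in P56-NSC, and to 2729 to 3733 in AST and 2291 to 2598 in P0-NSC. Neural stem and progenitor markers summed to 3657 to 4781 FPKM in AST, 3069 to 3379 in A-iSC, 1231 to 1318 in P56-NSC and 1762 to 1859 in P0-NSC. Vim and Nes, which met the rule, made up much of the AST sum: the other 25 markers summed to 1554 to 1874 FPKM in AST, 2044 to 2264 in A-iSC, 1192 to 1267 in P56-NSC and 1589 to 1687 in P0-NSC, so that AST and P0-NSC overlapped. Red blood cell genes summed to 163 to 565 FPKM in the progenitor libraries and to at most 0.548 in the others. AST 2 and A-iSC 3 stood apart from the other libraries of their groups in how levels followed gene length. Without both, an alternative chosen after seeing the data, 325 genes met the rule on the astrocyte-derived side and 353 on the progenitor side. For the genes chosen on all libraries, 75 rose and 123 fell from AST to A-iSC on the astrocyte-derived side, and 166 rose and 29 fell on the progenitor side. Scaling by total reads moved the median gene of that comparison by 0.125 on the log2 scale, where the deposited values put it at 0. The groups are called by their labels, and as these are bulk samples, fewer cells of a type and less RNA per cell cannot be told apart.

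**Figure D1:**
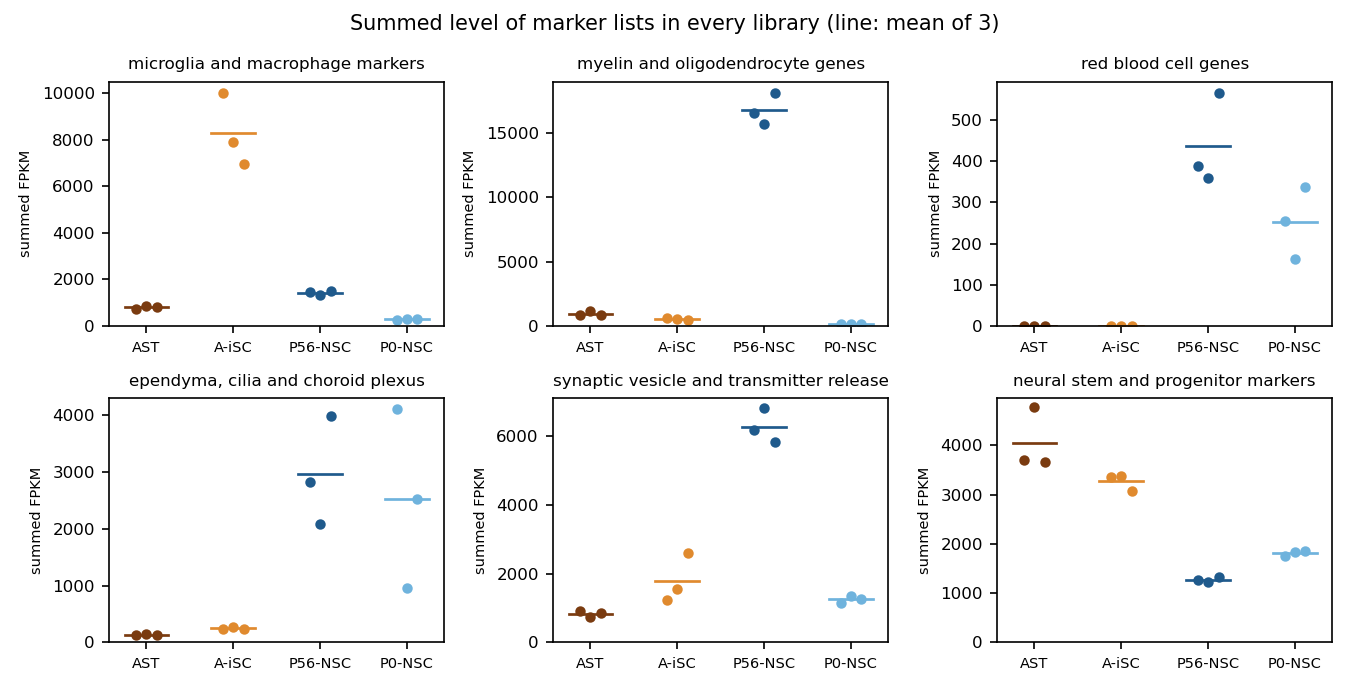
Summed FPKM (linear axes from 0) of 6 marker lists in every library; points are libraries and lines are means of 3. Myelin genes stand out in P56-NSC, microglia markers in A-iSC, and the sum of stem and progenitor markers is highest in AST, where Vim and Nes make up much of it.

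Few markers of the 2 pools' nominal identities met the rule. Of 27 stem and progenitor markers in the table, Vim and Nes were higher in the astrocyte-derived pool and 0 were higher in the progenitor pool. Of 41 astrocyte markers 3 met the rule, all on the progenitor side, and of 44 genes of mitosis and DNA replication none did. These counts stand beside 4.13% and 5.15% of all genes at 5 FPKM or more in the astrocyte-derived and the progenitor pool. The bases differ, as the lists also count genes below that level. The markers that did not meet the rule overlapped between the pools in sum, the 25 stem and progenitor markers as given above. The other 38 astrocyte markers summed to 2726 to 3731 FPKM in AST and 2239 to 2528 in P0-NSC. They summed to 16506 to 18139 in A-iSC and 17897 to 19158 in P56-NSC. Sox2 was at 126, 158 and 122 FPKM in AST, 210, 234 and 180 in A-iSC, 109, 119 and 94 in P56-NSC and at 84.8, 84.4 and 84.3 in P0-NSC, so the pools did not overlap, but the lowest astrocyte-derived value was less than 2 times the highest progenitor value. The intermediate filament gene Gfap, the transcription factor gene Pax6, the proliferation gene Mki67, the neuronal tubulin gene Tubb3 and the smooth muscle actin gene Acta2 did not meet the rule either. Acta2 came near it, with its lowest astrocyte-derived value 25.5 and its highest progenitor value 14.1 FPKM.

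Nestin, the intermediate filament protein by which neural progenitors are often recognized, is encoded by Nes, which stood at 209, 183 and 195 FPKM in AST, 72.2, 73.7 and 64.4 in A-iSC, 3.91, 3.48 and 3.9 in P56-NSC and at 27.9, 26.7 and 26.1 in P0-NSC. No library of one pool overlapped the other, as the rule requires, and the A-iSC values lay between those of AST and P0-NSC. Nes fell by 1.47 ± 0.09 (SE) on the log2(FPKM + 1) scale from AST to A-iSC (limma adjusted p = 5.38e-08) and was higher in P0-NSC than in P56-NSC by 2.55 ± 0.09 (limma adjusted p = 2.92e-10). Vim, which encodes the related filament vimentin, was at 1926, 2724 and 1908 FPKM in AST, 1243, 1131 and 741 in A-iSC, 41.7, 36 and 46.6 in P56-NSC and at 145, 114 and 168 in P0-NSC. It too fell in A-iSC, by 1.09 ± 0.22 (limma adjusted p = 0.00125).

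**Figure D2:**
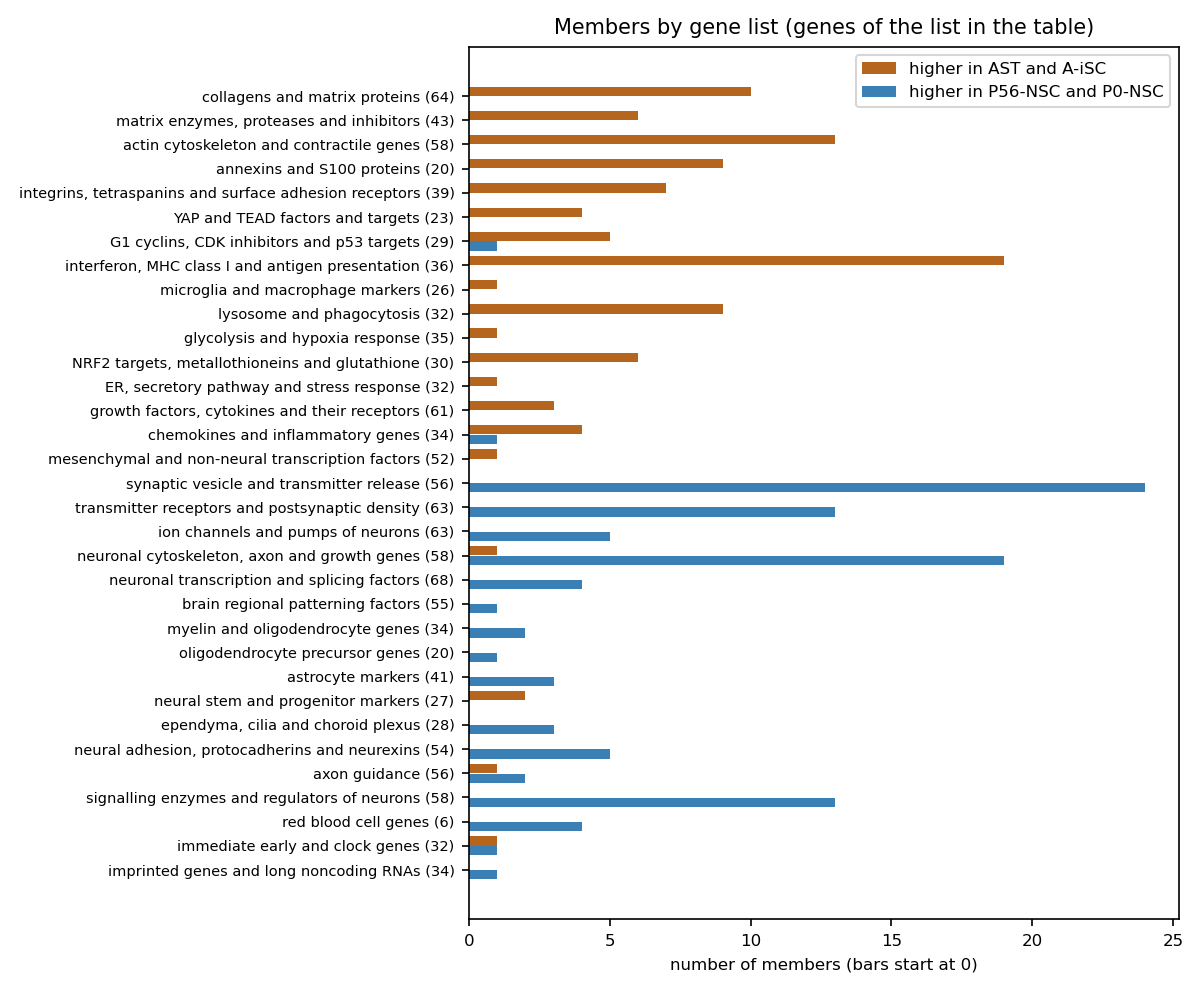
Number of genes meeting the rule on each side, by gene list (bars start at 0; the number of list genes in the table is in parentheses). Interferon, actin and matrix lists hold genes of the astrocyte-derived side, and synaptic and neuronal cytoskeleton lists hold genes of the progenitor side.

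The lists of genes held 101 of the 241 genes on the astrocyte-derived side (41.9%) and 99 of the 295 on the progenitor side (33.6%), and 1334 of the 15747 genes tested. They were chosen with earlier results of these data known, so the counts below are a description. The members from a list lay on 1 side, except in the lists of G1 cyclins and CDK inhibitors, chemokines, neuronal cytoskeleton, axon guidance and immediate early genes, which had members on both. On the astrocyte-derived side the most frequent were interferon and antigen presentation genes (19 of 36 in the table), genes of the actin cytoskeleton (13 of 58), matrix proteins (10 of 64), annexins and S100 proteins (9 of 20) and lysosomal genes (9 of 32). On the progenitor side they were synaptic vesicle genes (24 of 56), neuronal cytoskeleton and axon genes (19 of 58), transmitter receptors with their postsynaptic partners (13 of 63) and neuronal signalling enzymes (13 of 58). Of all genes at 5 FPKM or more in all 6 libraries of a pool, 4.13% and 5.15% met the rule, while the lists count genes at any level. The median ratio of the lowest value on the higher side to the highest value on the lower side was 3.17 for the astrocyte-derived genes and 3.8 for the progenitor genes. It reached 10-fold for 20 and 52 genes.

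Among the genes higher in the astrocyte-derived pool the widest separations, measured on the log2(FPKM + 1) scale, were those of Elobl, Bst2, Isg15, Lgals3, Npvf, Cd44, Timp1, Hspb8, Hmox1, Spp1, Ptgs2 and Lyz2. Elobl, annotated as elongin B-like, was at 33.6, 59.4 and 41 FPKM in AST and 60.3, 42.7 and 21.5 in A-iSC and was listed at 0 in all 6 progenitor libraries. As a near copy of another gene its reads could have been split in counting, so its value is uncertain. Npvf, a neuropeptide precursor gene, was at 47.5, 72.8 and 48.6 FPKM in AST and 31.5, 24.6 and 13 in A-iSC and at most 0.0767 in the progenitor libraries. Cd44, the receptor for the matrix sugar hyaluronan, was at 104, 102 and 107 FPKM in AST, 34.5, 28.3 and 31 in A-iSC, 0.425, 0.506 and 0.672 in P56-NSC and at 0.91, 0.999 and 1.31 in P0-NSC.

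**Figure D3:**
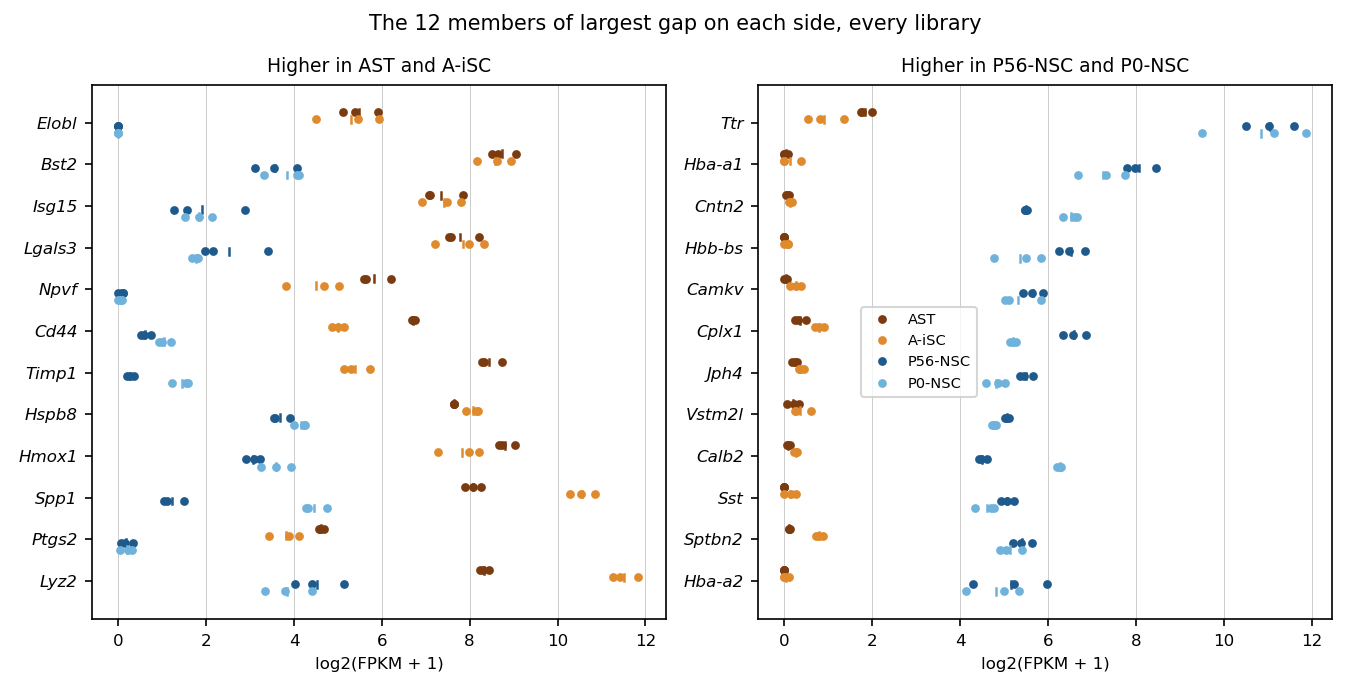
Level of the 12 genes of widest separation on each side in every library, as log2(FPKM + 1); points are libraries and short bars are group means. As the rule requires, on the left the AST and A-iSC points lie above all NSC points, and on the right below them. Several right-hand genes lie at or near 0 in AST and A-iSC.

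Interferon-stimulated and antigen presentation genes formed the largest group on the astrocyte-derived side. All 19 stayed higher after 5 days in spheres, as the rule requires. From AST to A-iSC 12 of them rose and 0 fell, against 28.1% higher and 30.8% lower of all 15747 genes tested, and among the 5833 genes at 5 FPKM or more in all 6 AST and A-iSC libraries 16.7% higher and 44% lower. The counts were 12 and 0 with quantile normalization and 14 and 0 with scaling by total reads. The rises were not particular to the 19: of all 36 genes of the list 25 rose and 0 fell. Microglia and macrophage markers were also higher in sum in A-iSC than in AST, as given above, and their part in this result was not tested.

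Bst2, which encodes tetherin, a membrane protein that holds budding viruses, was at 399, 531 and 365 FPKM in AST, 493, 391 and 286 in A-iSC, 10.6, 7.66 and 15.7 in P56-NSC and at 15.7, 8.98 and 16.3 in P0-NSC. Isg15, a ubiquitin-like protein gene, was at 136, 229 and 133 FPKM in AST, 223, 179 and 120 in A-iSC, 1.97, 1.42 and 6.39 in P56-NSC and at 3.42, 1.86 and 2.58 in P0-NSC. AST and A-iSC values of both genes overlapped, and neither passed the test (limma adjusted p = 0.656 for Bst2 and 0.893 for Isg15). Ifitm3, a gene whose product blocks virus entry, gave the same picture, with 464, 757 and 468 FPKM in AST and 648, 514 and 305 in A-iSC (limma adjusted p = 0.547).

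Other genes of the group were higher in A-iSC than in AST. Irf7, a master regulator of type I interferon, was at 5.92, 8.41 and 6.72 FPKM in AST and 79.7, 65 and 40.3 in A-iSC, and at most 2.09 in the progenitor libraries (log2 difference 2.92 ± 0.31, limma adjusted p = 7.08e-06). Oasl2, of the oligoadenylate synthetase family, rose from 5.09, 5.11 and 5.25 to 33.2, 30.4 and 25.9 FPKM (2.32 ± 0.17, limma adjusted p = 3.66e-07). Ifit1, an RNA-binding antiviral protein gene, rose from 23.9, 23.9 and 23.3 to 75.7, 60.8 and 56.6 FPKM (1.39 ± 0.24, limma adjusted p = 0.000394). B2m, the light chain of MHC class I, was at 848, 1184 and 859 FPKM in AST, 2482, 2136 and 1617 in A-iSC, 234, 223 and 313 in P56-NSC and at 82.1, 73.4 and 90.8 in P0-NSC. Ifit1, Ifit2 and Ifit3 lie with the lysosomal lipase gene Lipa within chromosome 19: 34492318 to 34650009 (build GRCm38), and all 4 were on the astrocyte-derived side.

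**Figure D4:**
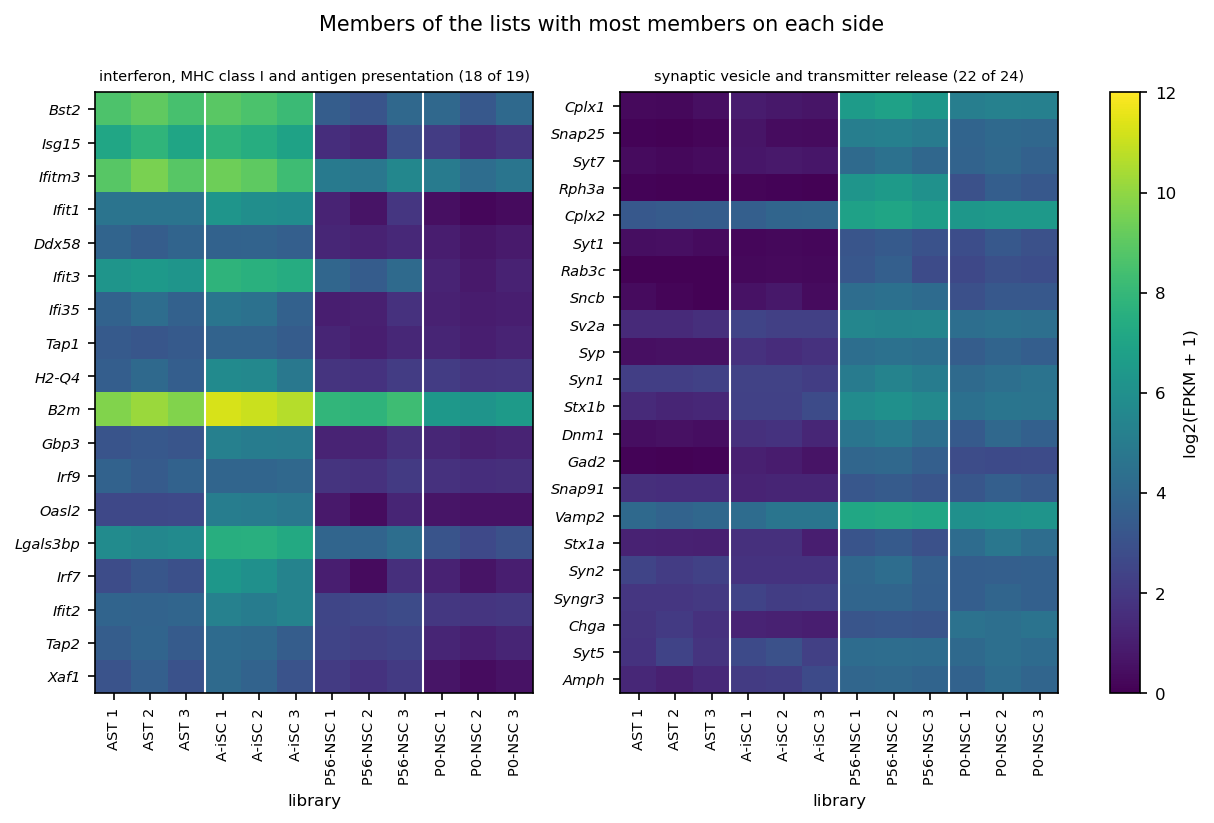
Level of 18 of the 19 interferon and antigen presentation genes (left) and 22 of the 24 synaptic vesicle genes (right) in every library, colored by log2(FPKM + 1). As the rule requires, every interferon gene shown is brighter in the 6 left-hand columns than in the 6 right-hand columns, and every synaptic gene shown the reverse.

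Promoter sequences are shown for 3 interferon-stimulated genes of this group because the letters of the interferon-stimulated response element (GAAANNGAA, searched on both strands, overlapping matches counted) were found in them. Each sequence is the 250 bases before the start site in RefSeq (build GRCm38.p6), with the matched letters in capitals.
Bst2, chr8:71537473-71537722, minus strand: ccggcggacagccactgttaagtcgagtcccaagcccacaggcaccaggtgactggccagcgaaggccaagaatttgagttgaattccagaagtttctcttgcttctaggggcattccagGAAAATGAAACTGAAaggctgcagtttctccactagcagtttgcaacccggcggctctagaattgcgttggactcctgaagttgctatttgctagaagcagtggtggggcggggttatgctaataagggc
Isg15, chr4:156200819-156201068, minus strand: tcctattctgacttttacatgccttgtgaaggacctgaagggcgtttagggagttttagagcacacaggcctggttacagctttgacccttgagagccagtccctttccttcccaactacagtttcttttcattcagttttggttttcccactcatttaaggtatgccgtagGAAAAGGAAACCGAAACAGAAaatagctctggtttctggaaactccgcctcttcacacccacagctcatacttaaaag
Ifit1, chr19:34640639-34640888, plus strand: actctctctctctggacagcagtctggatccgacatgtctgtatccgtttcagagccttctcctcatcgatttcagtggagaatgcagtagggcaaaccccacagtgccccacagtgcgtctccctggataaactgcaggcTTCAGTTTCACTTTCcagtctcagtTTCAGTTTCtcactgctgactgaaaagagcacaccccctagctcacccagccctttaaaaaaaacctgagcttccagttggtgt
In a window of 250 bases before to 50 after the first listed start site, these letters stood in 8 of 17 interferon and antigen presentation genes with a promoter in the table (47.1%). They stood in 24 of 193 genes on the astrocyte-derived side (12.4%), in 11 of 214 on the progenitor side (5.14%), in 7.04% of the 11063 tested genes matched and in 8.57% of all 27025 promoters. The first match began 130 bases before the start site of Bst2, 78 before that of Isg15 and 109 before that of Ifit1. The AP-1 letters TGANTCA stood in 13% of the astrocyte-derived side, 3.74% of the progenitor side and 5.02% of tested genes, and the letters TATAAA in 15%, 7.48% and 7.08%. The TEAD letters GGAATG differed little, at 12.4%, 13.1% and 12%. In the same order, CAGCACC stood in 5.18%, 9.35% and 7.49%, and GGGCGG in 71%, 63.1% and 63.8%. The letters CCWWWWWWGG (W is A or T) stood in 2.07%, 0.935% and 1.3%. Median GC content of the windows also differed, at 58.7%, 63.5% and 61%, and its part in these shares was not tested. A form of the response element longer by 1 base was searched first and is not given here. These searches were chosen after the values were seen, and a match is a description of sequence, not of a site in use.

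Genes of adhesion, matrix and the contractile cytoskeleton were numerous on the astrocyte-derived side too, and most of them were lower in A-iSC than in AST while remaining above the progenitor pool. Of 10 matrix protein genes 9 fell and 0 rose, of 13 actin cytoskeleton genes 11 fell and 1 rose, of 9 annexin and S100 genes 8 fell and 1 rose, and of 7 integrin, tetraspanin and adhesion receptor genes 6 fell and 0 rose. Of all 5833 genes at matched level 44% fell and 16.7% rose. Quantile normalization gave 7 and 1, 10 and 1, 7 and 1, and 6 and 1. The falls were not particular to the genes that met the rule. Of all tested genes of these lists, 50 of 63 matrix genes fell and 5 rose, and 54 of 57 actin genes fell and 2 rose. Of the annexin and S100 list 13 of 19 fell and 4 rose, and of the adhesion receptor list 26 of 37 fell and 5 rose. The rule bounds these falls, since a gene that fell below 2 times the progenitor level would not have been chosen.

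Thbs1, which encodes the adhesive glycoprotein thrombospondin 1, had the largest fall of the 241 genes. It was at 773, 604 and 792 FPKM in AST, 22.9, 18.7 and 15.3 in A-iSC, 0.398, 0.39 and 0.64 in P56-NSC and at 2.69, 2.18 and 2.55 in P0-NSC (A-iSC minus AST -5.19 ± 0.15, limma adjusted p = 4.17e-10). Fn1, fibronectin, was at 338, 214 and 347 FPKM in AST, 60.1, 58.7 and 80.1 in A-iSC, 0.375, 0.4 and 0.587 in P56-NSC and at 15.5, 18.9 and 16.7 in P0-NSC. Both progenitor groups lay below A-iSC, as the rule requires, and P0-NSC lay far above P56-NSC (3.63 ± 0.18, limma adjusted p = 6.29e-09). Timp1, an inhibitor of matrix metalloproteinases, was at 321, 423 and 309 FPKM in AST and 52.4, 38.4 and 34.2 in A-iSC, against at most 2.02 in the progenitor libraries.

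Ccn1 and Ccn2, matricellular genes known as targets of the YAP coactivator, remained above the progenitor values after falling. Ccn2 was at 336, 318 and 305 FPKM in AST, 45.7, 47.2 and 26.1 in A-iSC, 0.644, 0.436 and 1.34 in P56-NSC and at 4.57, 5.03 and 4.09 in P0-NSC. Ccn1 went from 935, 966 and 895 FPKM to 117, 106 and 53.5, with progenitor values of 11.8 to 23. The calponin gene Cnn2 went from 342, 369 and 324 FPKM to 26.1, 26.9 and 23.3 (-3.71 ± 0.08, limma adjusted p = 1.18e-10). Of the membrane-binding proteins, S100a11 went from 1982, 3525 and 1993 to 513, 401 and 181 FPKM, and Anxa2 from 303, 363 and 287 to 80.8, 81.3 and 68.2.

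The cell cycle inhibitor genes Cdkn2a, Cdkn2b and Cdkn1a were higher in the astrocyte-derived pool. With Fas and Sesn2 they were the 5 on this side of 29 genes in the list of G1 cyclins, inhibitors and p53 targets. All 5 fell in A-iSC, 4 of them with quantile normalization or scaling by total reads. Of the 5833 genes at matched level 44% fell. The fall was not particular to these 5: of all 29 genes of the list 25 fell, as did 43 of 43 tested genes of mitosis and DNA replication. Cdkn2a, the locus of p16 and p19ARF that rises in long-term culture, was at 39.2, 65.5 and 41.9 FPKM in AST, 9.53, 8.54 and 6.21 in A-iSC and at most 0.336 in the progenitor libraries. It fell by 2.44 ± 0.19 (limma adjusted p = 5.45e-07), and its neighbour Cdkn2b, which encodes p15, fell by 1.45 ± 0.11 (limma adjusted p = 5.25e-07), to 8.75, 9.2 and 11.4 FPKM. Both A-iSC sets thus lay far above the progenitor values, which were at most 0.83 FPKM for Cdkn2b. Cdkn1a, the p53 target p21, was at 238, 217 and 232 FPKM in AST, 75.2, 75.7 and 57.9 in A-iSC and 7.17 to 14.1 in the progenitor libraries. The inhibitor Cdkn1c, p57, lay on the progenitor side instead, at 0.848, 0.895 and 0.871 FPKM in AST, 2.36, 2.25 and 1.15 in A-iSC, 7.43, 5.62 and 9.35 in P56-NSC and at 23.5, 18 and 26.9 in P0-NSC. Its rise in A-iSC (limma adjusted p = 0.0204) ended with quantile normalization (limma adjusted p = 0.0938), with no filter (0.051) and without AST 1, A-iSC 1 or A-iSC 2 (0.0507, 0.077 and 0.0745).

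Of 9 lysosomal genes on the astrocyte-derived side 6 rose in spheres and 1 fell, or 7 and 0 with quantile normalization, against 16.7% higher and 44% lower of the 5833 genes at matched level. Of all 32 genes of the lysosomal list 20 rose and 6 fell. Gpnmb, a glycoprotein of phagocytic cells, was at 16.2, 14.7 and 18.6 FPKM in AST and 187, 151 and 127 in A-iSC, against at most 0.949 in the progenitor libraries (3.15 ± 0.16, limma adjusted p = 1.6e-08). Lyz2, the lysozyme of macrophages, was at 301, 316 and 345 FPKM in AST, 3672, 2724 and 2475 in A-iSC and 9.13 to 34.5 in the progenitor libraries (3.18 ± 0.30, limma adjusted p = 2.38e-06). C3ar1, the receptor for complement C3a, rose from 5.56, 5.73 and 6.05 to 68.3, 57.7 and 48.5 FPKM. Spp1, osteopontin, rose from 235, 307 and 268 to 1847, 1478 and 1242 FPKM and was at 1.06 to 1.81 in P56-NSC and at 18.3 to 26.1 in P0-NSC. Lyz2 was the 1 of 26 microglia and macrophage markers that met the rule. Another of those markers, Aif1, was at 2.65, 4.38 and 2.64 FPKM in AST, 47.7, 41.6 and 35.6 in A-iSC, 7.52, 7.48 and 7.05 in P56-NSC and at 2.6, 2.62 and 2.7 in P0-NSC. The part of these markers in the rises of the lysosomal and phagocyte genes was not tested.

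Of 30 NRF2 targets, metallothioneins and glutathione genes 6 met the rule, all on the astrocyte-derived side, though the list summed to 4666 to 6337 FPKM in AST, 4805 to 8979 in A-iSC, 6749 to 7622 in P56-NSC and 1250 to 1477 in P0-NSC. Hmox1, the heme oxygenase gene, was at 404, 526 and 423 FPKM in AST and 297, 251 and 155 in A-iSC, against 6.48 to 14.3 in the progenitor libraries. Hspb8, a small heat shock protein gene, was at 199, 199 and 200 FPKM in AST and 290, 282 and 242 in A-iSC, against 10.6 to 18 in the progenitor libraries. It was one of 61 genes on this side that rose (25.3%), beside 125 that fell (51.9%) and 55 without a call. Of the calls 32.8% were higher in A-iSC, and 43.5% with quantile normalization. The median difference from AST to A-iSC was -0.39 over these 241 genes and -0.24 over all 5833 genes at 5 FPKM or more in the 6 libraries, and 31 rose and 72 fell by 2-fold or more, against 4.47% and 10.9% of those 5833.

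On the progenitor side the widest separations included blood and choroid plexus genes beside neuronal ones. Ttr, the transthyretin that choroid plexus secretes, was at 2077, 1452 and 3120 FPKM in P56-NSC and at 3747, 725 and 2265 in P0-NSC, against 2.41, 2.37 and 2.95 in AST and at 0.46, 1.56 and 0.755 in A-iSC. The P0-NSC values spread widely, and Clic6 and Folr1, also of choroid plexus, were lowest in the same P0-NSC library, at 5.88 and 5.05 FPKM. The hemoglobin gene Hba-a1 was at 253, 220 and 353 FPKM in P56-NSC and at 159, 102 and 215 in P0-NSC and at most 0.306 in the other pool. Hbb-bt was listed at 0 in all 6 astrocyte-derived libraries and at 14 to 32.6 FPKM in the progenitor libraries. The hemoglobin genes come in near-identical pairs, between which the counting could have split reads. All 4 hemoglobin genes and all 3 choroid plexus genes of the progenitor side had no call between A-iSC and AST, though Ttr was called lower with quantile normalization (limma adjusted p = 0.0473), with a pseudocount of 0.1 (0.0283), with only AST and A-iSC in the fit (0.0121) and without P0-NSC 2 (0.0192).

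Synaptic and neuronal genes made up most of the listed genes of the progenitor side, and many rose in A-iSC, to levels that the rule keeps below the progenitor values. Of 24 synaptic vesicle genes 15 rose and 4 fell, of 19 neuronal cytoskeleton and axon genes 14 rose and 4 fell, and of 13 receptor and postsynaptic genes 6 rose and 0 fell, against 24.1% higher and 37.3% lower among all 5728 genes at 5 FPKM or more in the 6 progenitor libraries. Quantile normalization gave 12 and 5, 13 and 4, and 5 and 1. Of all tested genes of these lists, 27 of 51 rose and 8 fell, 27 of 58 rose and 16 fell, and 18 of 58 rose and 4 fell. The 24 synaptic vesicle genes summed to 54.2 to 56 FPKM in AST, 78.6 to 88.4 in A-iSC, 826 to 1035 in P56-NSC and 489 to 572 in P0-NSC. The whole list of 56 genes did not separate the pools, with 740 to 917 FPKM in AST, 1240 to 2597 in A-iSC, 5830 to 6811 in P56-NSC and 1161 to 1356 in P0-NSC.

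Cplx1, a complexin that clamps vesicle fusion, was at 0.245, 0.18 and 0.394 FPKM in AST, 0.861, 0.73 and 0.613 in A-iSC, 94.4, 116 and 79.8 in P56-NSC and at 34.2, 37.8 and 35.9 in P0-NSC. The A-iSC values lay above those of AST (0.45 ± 0.13, limma adjusted p = 0.00957) and stayed below 1 FPKM. Snap25, a SNARE of the presynaptic membrane, was at 0.0966, 0.0581 and 0.119 FPKM in AST, 0.577, 0.328 and 0.269 in A-iSC, 34.4, 36.3 and 30.4 in P56-NSC and at 13.6, 16 and 14.9 in P0-NSC, a rise in A-iSC (limma adjusted p = 0.0142) that ended without A-iSC 1 (0.0614). The synaptic vesicle gene Syp rose from 0.412, 0.454 and 0.465 to 2.23, 1.84 and 2.23 FPKM (1.10 ± 0.10, limma adjusted p = 2.35e-06), where the lowest progenitor value was 10.7. Vamp2, another SNARE gene, had the highest mean level in the astrocyte-derived libraries of the 24 synaptic vesicle genes that met the rule, at 16.1, 13 and 15.1 FPKM in AST, 17.7, 24.4 and 24 in A-iSC, 139, 154 and 135 in P56-NSC and at 64, 69.1 and 74 in P0-NSC.

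The neuropeptide genes Sst, somatostatin, and Cck, cholecystokinin, were at most 0.206 and 0.258 FPKM there, and at 19.3 to 36.6 and 12.5 to 59.1 FPKM in the progenitor libraries. Gad2, which makes the transmitter GABA, was at 0.071, 0.042 and 0.0916 FPKM in AST, 1.1, 0.909 and 0.54 in A-iSC, 14.5, 15.4 and 11.5 in P56-NSC and at 5.86, 5.44 and 5.78 in P0-NSC. The A-iSC values lay above those of AST (0.78 ± 0.13, limma adjusted p = 0.000219) and, as the rule requires, below every progenitor value. Rbfox3, whose product is the neuronal nuclear antigen NeuN, was at most 0.171 FPKM in the astrocyte-derived libraries and at 7.03 to 18.5 in the progenitor libraries. Of the 295 genes, 62 were below 1 FPKM in all 6 astrocyte-derived libraries, while 16 of the 241 were below 1 FPKM in all 6 progenitor libraries.

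The largest rises on the progenitor side reached several FPKM in A-iSC. Apba2, an adaptor of the presynaptic terminal, went from 0.39, 0.671 and 0.479 FPKM in AST to 7.55, 9.68 and 12.3 in A-iSC, against 31.4 to 55 in the progenitor libraries (2.82 ± 0.14, limma adjusted p = 1.33e-08). Ptgds, the prostaglandin D synthase of glia and meninges, went from 2.03, 2.39 and 1.37 to 16, 19.3 and 18.1 FPKM, against 149 to 708. Tagln3, a neuronal transgelin gene, went from 2.5, 2.15 and 2.17 to 19.2, 20.4 and 18.6 FPKM, against 104 to 117. Dlx1, a transcription factor of forebrain interneuron progenitors, went from 1.14, 1.06 and 0.968 to 7.1, 5.97 and 4.41 FPKM, against 15.1 to 17.5 (1.71 ± 0.13, limma adjusted p = 3.49e-07). Each of these A-iSC sets lay wholly between AST and the progenitor libraries, which the rule and the choice of genes that rose largely fix in advance.

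A smaller set fell in A-iSC, away from the progenitor level. Trnp1, a nuclear protein gene of radial glia, went from 4.29, 5.87 and 4.92 FPKM to 1.26, 1.32 and 0.677 (-1.54 ± 0.18, limma adjusted p = 1.89e-05), against 13.3 to 116 in the progenitor libraries. Kif5c, a kinesin that carries cargo along axons, went from 14.9, 12 and 15.1 to 5.43, 5.14 and 7.19 FPKM, against 89.8 to 249. Its paralog Kif5a rose instead, from 0.7, 0.896 and 0.824 to 3.54, 4.21 and 3.31 FPKM (1.37 ± 0.12, limma adjusted p = 1.43e-06). Zic1, a factor of brain patterning and the 1 of 55 genes of that list that met the rule, was at 5.48, 4.23 and 5.2 FPKM in AST and 4.73, 5.31 and 4.7 in A-iSC, which overlapped (limma adjusted p = 0.967), and at 24 to 42.9 in the progenitor libraries.

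The astrocyte genes that met the rule included a transporter and a receptor of transmitters. Slc6a11, which takes up GABA into astrocytes, was at 0.0354, 0.0586 and 0.0853 FPKM in AST, 2.84, 4.41 and 7.48 in A-iSC, 309, 401 and 259 in P56-NSC and at 23.2, 32.1 and 24.5 in P0-NSC. The glutamate receptor gene Grm3 rose in A-iSC to 0.488, 0.483 and 1.37 FPKM, against 6.33 to 36.8 in the progenitor libraries. Both rises passed the test (limma adjusted p = 5.32e-06 for Slc6a11 and 0.00396 for Grm3).

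Over the 295 genes of the progenitor side 174 rose from AST to A-iSC (59%), 25 fell (8.47%) and 96 had no call. The median difference was 0.44, against -0.14 over the 5728 genes at 5 FPKM or more in the progenitor libraries, and 73 rose and 5 fell by 2-fold or more, against 8.29% and 8.15% of those 5728. Among the 213 that reached 1 FPKM in at least 3 astrocyte-derived libraries 139 rose and 23 fell, with a median of 0.55, against 28% higher and 35.2% lower of all 13310 genes that reached this level. The rule bounds these rises, as it requires A-iSC to stay below the lowest progenitor value divided by 2, and it leaves a gene with a low AST value more room to rise than to fall. In summed level the 295 genes took 0.196 to 0.23% of all FPKM in AST, 0.36 to 0.46% in A-iSC, 3.27 to 3.42% in P56-NSC and 3.9 to 5% in P0-NSC. The 241 took 8.47 to 8.82% in AST, 6.34 to 7.47% in A-iSC, 0.404 to 0.495% in P56-NSC and 0.714 to 0.79% in P0-NSC.

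**Figure D5:**
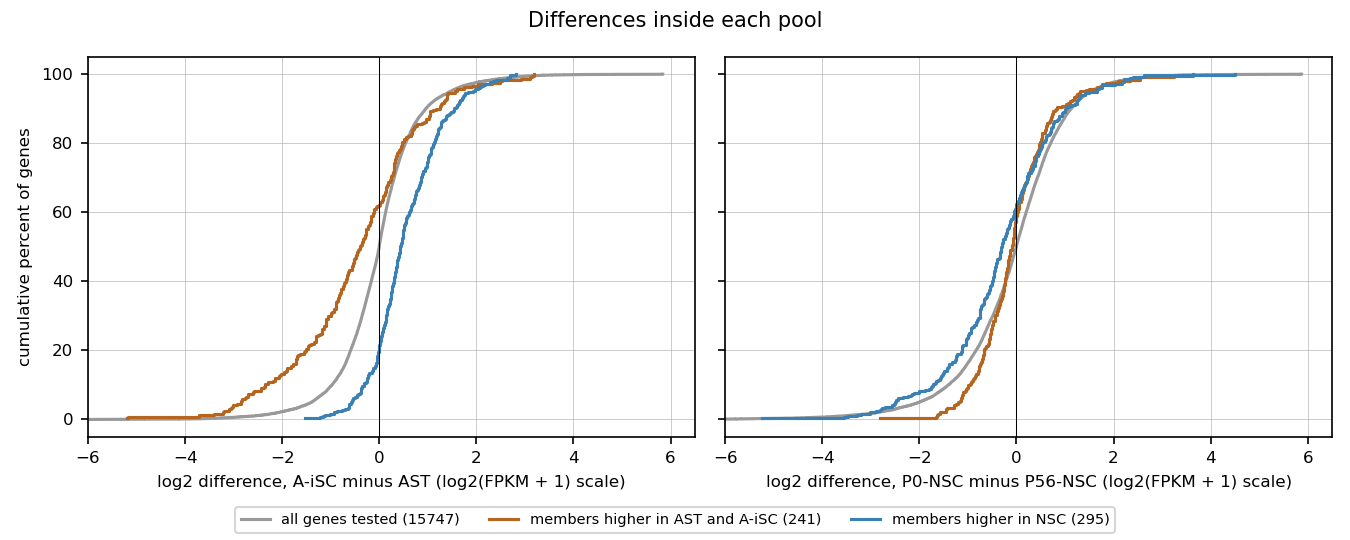
Cumulative percent of genes by log2 difference inside each pool, A-iSC minus AST (left) and P0-NSC minus P56-NSC (right), for the genes of each side and all genes tested. On the left the astrocyte-derived side lies left of all genes and the progenitor side right of them (medians -0.39 and 0.44); on the right the curves lie closer together.

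The progenitor groups differed from each other in many genes, those that met the rule among them. Of the 241 genes 60 (24.9%) were higher and 81 (33.6%) lower in P0-NSC than in P56-NSC. Of the 295 genes 81 (27.5%) were higher and 139 (47.1%) lower. Among all genes tested 33.9% were higher and 35.3% lower. Among genes at 5 FPKM or more in AST and A-iSC, 33.3% were higher and 36.9% lower, and both shares of the 241 lay below these. That set is not matched to the 241 in the libraries compared here, where the 241 had medians of 3.34 to 3.82 FPKM. Differences of low genes are understated, so no conclusion is drawn from their lower shares. Among genes at 5 FPKM or more in the progenitor libraries, 32.5% were higher and 35.1% lower. For the 295 the higher share lay below the first of these and the lower share above the second. These splits depend on the scaling: by total reads, which moves the median gene by 0.449 on the log2 scale, they became 116 and 30, and 143 and 77. Kif5a was at 1328, 1641 and 1189 FPKM in P56-NSC and at 32.9, 37.3 and 35.9 in P0-NSC (-5.24 ± 0.12, limma adjusted p = 1.31e-11). Islr2, a membrane protein gene of growing axons, was at 8.94, 10.4 and 7.59 FPKM in P56-NSC and at 237, 198 and 242 in P0-NSC (4.51 ± 0.12, limma adjusted p = 3.8e-11). Of the 19 interferon genes 9 were lower and 0 higher in P0-NSC, or 7 and 1 by total reads, with Ifit3 at 14.4, 10.4 and 16.8 FPKM in P56-NSC and at 1.3, 0.768 and 1.23 in P0-NSC.

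In 2 gene families paralogs lay on opposite sides. The beta-tubulin gene Tubb6, of non-neural cells, was at 215, 257 and 207 FPKM in AST, 36.3, 29.7 and 25.8 in A-iSC, 1.35, 1.48 and 1.84 in P56-NSC and at 5.83, 5.67 and 6.15 in P0-NSC. Tubb4a, a beta-tubulin of neurons and oligodendrocytes, was at 6.93, 10.3 and 6.86 FPKM in AST, 13.5, 13.4 and 9.19 in A-iSC, 512, 518 and 507 in P56-NSC and at 96.3, 94.7 and 112 in P0-NSC. From AST to A-iSC Tubb6 fell by 2.85 ± 0.13 (limma adjusted p = 6.65e-09) and Tubb4a rose by 0.53 ± 0.16 (limma adjusted p = 0.0145), a call that ended without AST 1, AST 3, A-iSC 1 or A-iSC 2 (0.0608, 0.0617, 0.057 and 0.0583) and with only AST and A-iSC in the fit (0.0744). Among small GTPases, Rhoc and Rnd3 were on the astrocyte-derived side and fell in A-iSC, by 1.14 ± 0.13 and 1.46 ± 0.15. Rnd2, which acts in migrating neurons, was on the progenitor side and rose from 5.12, 4.86 and 5.36 to 17.4, 19.2 and 23 FPKM (1.77 ± 0.11, limma adjusted p = 7.84e-08).

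Both sides consisted almost wholly of protein-coding genes, 97.9% and 98.6%, against 94.2% and 94.4% of genes at 5 FPKM or more in the same pools. Their median lengths were 3414 and 4594 bases, against 3635 and 3765. Transcription factors made up 4.56% and 2.71%, against 4.3% and 4.5%. Of the 241 and 295 genes, 52 and 63 (21.6% and 21.4%) overlap the span of another gene that reached 1 FPKM in some library. Among them are Mrps6 and Slc5a3, which share part of a locus on the same strand. Spans include introns, so how many pairs share counted reads is not known, and the share over all genes was not computed. Where pairs on opposite strands share transcribed bases, reads cannot be told apart without strand information. Genes near the threshold were Tmem165 (27.5 against 13.7 FPKM) inside and Nfkb2 (5.57 against 2.79) and Ccng1 (65.5 against 32.9) outside on the astrocyte-derived side. On the progenitor side they were Sobp (8.61 against 4.29) inside, and Tspyl4 (15.8 against 7.89) and Hid1 (8.42 against 4.22) outside.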

How the data were processed

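Per the labels' protocols, 3 µg of Trizol-extracted RNA per sample went into NEBNext Ultra libraries, a kit that does not mark strand. The authors deposited 1 table of FPKM values for 55862 entries, 441 of them without a gene name (0.0957 to 0.156% of reads), which were left out. Bowtie 0.12.2, mm8 and mm9 appear in the submitters' processing notes, but 99.5% of 55154 shared identifiers have GENCODE M21 (GRCm38) coordinates in the deposited table. No source used here names the counting tool. FPKM times gene length gave whole reads (within 0.01), so depth is known: 1 read per kb is worth 0.0343 to 0.0623 FPKM, which covers counting error only. The library size implied by the FPKM values was 0.744 to 0.779 times the recovered reads in P56-NSC and 1.15 to 1.22 times in P0-NSC. It was 0.941 to 0.985 times in AST and 1.1 to 1.15 times in A-iSC. The deposited values, and with them the rule, thus carry a scaling beyond these read totals that differs by group.

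The test, limma 3.58.1 (R 4.3.3), ran on log2(FPKM + 1) values (trend on the mean, Benjamini-Hochberg adjusted p below 0.05), all 12 libraries in 1 fit with a mean per group, on 15747 genes at 1 FPKM or more in 3 libraries. The pseudocount of 1 understates changes of low genes. The fit was also run on simulated counts of 1 fixed spread, without the deviations by gene length seen in AST 2 and A-iSC 3. That run therefore does not give the error rate in these libraries. Tables and figures used Python 3.11.15, numpy 2.4.6, pandas 2.3.3 and matplotlib 3.10.9. Named genes are mainly those of widest separation, the first of each list, the largest changes inside each pool, and paralogs on both sides; Aif1, Anxa2, Cck, Gad2, Lipa, Mrps6, Oasl2, Sesn2, Slc5a3, Ifit2, Syp and Vamp2 were picked after their values were seen. The genes and lists were chosen with earlier results of these data known. Other scalings, filters, folds and left-out libraries were tried. Some genes that met the rule are not reported here.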

Additional observations from a re-analysis of the deposited data

How the results depend on the processing

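The number of genes depends on the rule's settings. On the astrocyte-derived side 426 genes met a fold of 1.5, 133 a fold of 3 and 381 a minimum of 1 FPKM. On the progenitor side 188 met a fold of 3, 662 a minimum of 1 FPKM, 168 a minimum of 10 FPKM and 461 a minimum on the pool mean. Leaving out 1 library gave 241 to 312 and 295 to 353 genes. The choice of genes also depends on the scaling. By total reads 312 genes met the rule on the astrocyte-derived side, 221 of the 241 among them. On the progenitor side 248 did, with 226 of the 295. Quantile normalization gave 246 genes with 226 of the 241, and 302 with 286 of the 295. From AST to A-iSC, leaving out 1 library gave 50 to 67 higher and 122 to 125 lower of the 241 genes, and 160 to 176 higher and 25 to 28 lower of the 295. From P56-NSC to P0-NSC it gave 55 to 65 higher and 68 to 89 lower of the 241, and 74 to 86 higher and 130 to 147 lower of the 295. Scaling by total reads changed P0-NSC against P56-NSC to 116 higher and 30 lower of the 241 and 143 higher and 77 lower of the 295. Of the genes called in that comparison, 20 of 141 on the astrocyte-derived side and 31 of 220 on the progenitor side changed sign under that scaling. Among the named genes the difference of Thbs2 became 0.01, Ctsl 0.37, Vstm2l 0.33, Sst 0.14, Syt7 0.25, Zic1 0.18, Serp2 0.06 and Sox2 0.29, all with the opposite sign, and Sox2 was at 0.16 with quantile normalization. The share of called genes on the astrocyte-derived side that were higher in A-iSC was 32.8%, and 43.5% with quantile normalization. The labels do not say whether the replicate numbers pair the samples (Spearman correlation of deviations of same-numbered libraries -0.466, 0.403 and 0.514 for AST and A-iSC, 0.04, 0.114 and 0.076 for P56-NSC and P0-NSC). The differently numbered AST 2 and A-iSC 1 were at 0.563. These values cannot decide the question, since deviations also followed gene length (Spearman correlation -0.45 in AST 2 and 0.328 in A-iSC 3). With the replicate number as a block, A-iSC against AST gave 59 higher and 125 lower of the 241 and 174 and 25 of the 295, and P0-NSC against P56-NSC gave 61 and 80, and 79 and 139. Depth limits genes below about 1 FPKM, where fitted differences are small by construction.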
